A study of Mus musculus with 21 samples.

Results

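Interferon response genes were examined in mouse embryonic stem cells (ESCs) with and without *Ddx6*, which encodes a DEAD box RNA helicase of P-bodies. The group holds 9 of the 51559 genes in the count tables: *Irgm1*, *Igtp*, *Stat2*, *Irf1*, *Irf3*, *Irf9*, *Isg15*, *B2m* and *Bst2*. Members were matched by symbol to their Ensembl identifiers, and all 9 were found. *Irgm1* was selected on its large rise in *Ddx6* KO cells in these same libraries, so its values are described without a test, and it is left out of the counts of called members.

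V6.5 ESCs were grown in medium with FBS, LIF and 2i. The wild-type group comprised 3 cultures, and the *Ddx6* KO group comprised 2 cultures of each of 2 clones made with CRISPR-Cas9 and 1 guide against exon 7. The clones were picked after sorting. Per the study, 1 of the clones carries a single-nucleotide insertion and the other a large deletion, and which clone number carries which allele is not stated. All cultures were labelled with 500 µM 4-thiouridine (4sU) for 30 min, and nascent (4sU) RNA and total RNA were sequenced from each. This gave 14 libraries with 2441639 to 3570192 counts for 4sU and 5724179 to 7369651 counts for total RNA. The labels do not say how cultures were separated, so p-values measure the spread between these cultures.

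Total RNA of *Ddx6* itself lay between 314 and 363 CPM (counts scaled to the library total) in wild type, between 59.6 and 70.7 CPM in clone 1, and between 22.5 and 23.9 CPM in clone 2, in the direction of the labels. All 8 ESC markers examined were detected in both genotypes, with a summed total RNA level of 4561 to 4671 CPM in wild type and 4995 to 5194 CPM in *Ddx6* KO. The 8 leukocyte and macrophage markers summed to 11.7 to 15.0 CPM in wild type and 31.2 to 35.1 CPM in *Ddx6* KO. Nearly all of that was the lysosomal gene *Cd68*, and *Ptprc*, *Adgre1* and *Tyrobp* were at 0 in total RNA of both genotypes. *Lyz2* and *Cd52* were at 0 in wild type and were detected in *Ddx6* KO. The 7 fibroblast markers summed to 3.14 to 5.34 CPM in wild type and 11.3 to 13.1 CPM in *Ddx6* KO, with *Thy1* the highest and *Dcn* and *Postn* at 0 in both. *Col1a2*, *Col3a1* and *Lum* were at 0 in wild type and were detected in *Ddx6* KO. The part of the leukocyte and fibroblast markers in the results was not tested.

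Interferons are secreted signals of viral infection. Their receptors activate JAK kinases, which phosphorylate STAT proteins. STAT2 and IRF9 belong to a complex that binds the interferon-stimulated response element (ISRE) in promoters, whereas the gamma-activated site (GAS) serves the response to interferon gamma. IRF3 acts before that step, as the factor that switches on interferon genes once viral nucleic acid is sensed, and IRF1 is an early transcription factor of the interferon gamma response. The products include the immunity-related GTPases IRGM1 and IGTP, the ubiquitin-like modifier ISG15, the class I antigen presentation subunit B2M, and BST2 (tetherin), which holds budding virions on the cell surface. Pluripotent cells are known for a weak response to interferon.

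The promoters of the members are shown first, because the ISRE is the sequence by which these genes are usually grouped. Windows of 300 bases, from 250 bases before to 50 bases after the annotated start, were taken from RefSeq on GRCm38.p6, and all 9 members had at least 1. The ISRE core was searched as GAAA, any 2 bases and GAAA again, and the GAS as TTC, any 3 bases and GAA, on both strands. Of 32851 windows, 3.44% held the ISRE core and 8.30% held the GAS. The core was found in 6 members, *Irgm1*, *Igtp*, *Stat2*, *Isg15*, *B2m* and *Bst2*. The stretches around 1 match of each are given below in the direction of transcription, with the match in capitals.
Irgm1, chr11:48871420-48871459, minus strand: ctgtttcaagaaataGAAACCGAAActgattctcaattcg
Igtp, chr11:58199507-58199546, plus strand: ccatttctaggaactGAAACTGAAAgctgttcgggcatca
Isg15, chr4:156200866-156200905, minus strand: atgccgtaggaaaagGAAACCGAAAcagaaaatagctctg
B2m, chr2:122147533-122147572, plus strand: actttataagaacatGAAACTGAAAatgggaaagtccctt
Bst2, chr8:71537572-71537611, minus strand: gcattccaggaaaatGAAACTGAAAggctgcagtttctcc
Stat2, chr10:128270261-128270300, plus strand, match on the opposite strand: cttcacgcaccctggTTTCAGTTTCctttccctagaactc

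Counted from the start as position 0, the match shown began at -24 in *Irgm1*, -34 in *Igtp*, -72 in *Isg15*, -124 in *Bst2*, -139 in *B2m* and -222 in *Stat2*. *Irgm1* and *Bst2* each held 2 overlapping matches, and *Isg15* held 3. *Irgm1* and *Isg15* carried the same 10 letters in the match shown, and *Igtp*, *B2m* and *Bst2* shared another, which *Stat2* carried on the opposite strand. The GAS was found in *Igtp*, *Bst2* and *Irf1*. In *Igtp* it lies just upstream of the ISRE core, in *Bst2* it overlaps one, and in *Irf1* it stands alone and is shown because that promoter holds no ISRE core.
Irf1, chr11:53769909-53769947, plus strand: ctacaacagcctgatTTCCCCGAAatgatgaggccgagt
Neither motif was found in the windows of *Irf3* and *Irf9*. These matches are letters in a window and were not examined for binding.

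In wild-type total RNA, levels per kilobase of exon ordered the members from *Bst2* at 38.7 ± 3.61 CPM per kb (mean ± SD, n = 3) through *B2m* at 16.2 ± 1.10, *Irf3* at 13.4 ± 0.659, *Stat2* at 10.5 ± 0.515, *Irf1* at 7.55 ± 0.330 and *Irf9* at 4.10 ± 0.449 to *Igtp* at 0.887 ± 0.353 CPM per kb. Neighbours in that order did not overlap over the 3 cultures. *Irgm1* and *Isg15* came last and could not be ordered, with 1 count and 0 counts over the wild-type total RNA libraries.

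The tetherin and antigen presentation genes were the most abundant members in unstimulated ESCs, and the GTPases and *Isg15* were close to the detection floor. A floor of 3 counts corresponds to 0.407 to 0.524 CPM in total RNA and to 0.840 to 1.23 CPM in 4sU RNA, and covers counting error only. Genes were tested where they reached 3 CPM in at least 3 of the 14 libraries, which left 14518. Of the members, 8 passed and *Isg15* did not. *Irgm1* and *Igtp* reached 3 CPM in 0 and 1 of the wild-type libraries and in 8 and 7 of the *Ddx6* KO libraries, so both passed only through the group in which they are high.

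*Irgm1* (ENSMUSG00000046879, mm10 chr11:48865245-48871420, minus strand) encodes a GTPase that restrains other immunity-related GTPases and takes part in autophagy of intracellular pathogens. In total RNA, the 3 wild-type cultures held 1, 0 and 0 counts, which is 0.175, 0 and 0 CPM. Clone 1 had 5.13 and 5.46 CPM in its cultures, and clone 2 had 10.6 and 8.199 CPM. Every *Ddx6* KO culture was thus above every wild-type culture, and both cultures of clone 2 were above both of clone 1. In these bulk libraries, more cells that express a gene and more of its RNA per cell cannot be told apart.

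The same arrangement appeared in 4sU RNA. The wild-type cultures lay at 2.05, 0 and 1.67 CPM, from 5, 0 and 5 counts. Clone 1 had 10.6 and 8.15 CPM in its cultures, and clone 2 had 21.0 and 16.8 CPM. Summed over cultures and scaled with TMM, a trimmed-mean normalization factor, the *Ddx6* KO to wild-type ratio was 10.4 in 4sU RNA (exact 95% interval 5.52 to 22.03, from 184 and 10 counts). In total RNA it was 129, with an interval from 22.8 to 5101 that reflects the single wild-type count against 200 counts in *Ddx6* KO. These intervals cover counting error only, and both ratios describe the values on which *Irgm1* was selected. Split by sequencing run, the mean 4sU level was 1.78 against 13.9 CPM in the single-end run and 0.562 against 14.4 CPM in the re-sequencing run. The wild-type means rest on 8 and 2 counts. Both runs went into the summed counts on which *Irgm1* was selected, so this split does not test the difference.

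**Figure D1:**
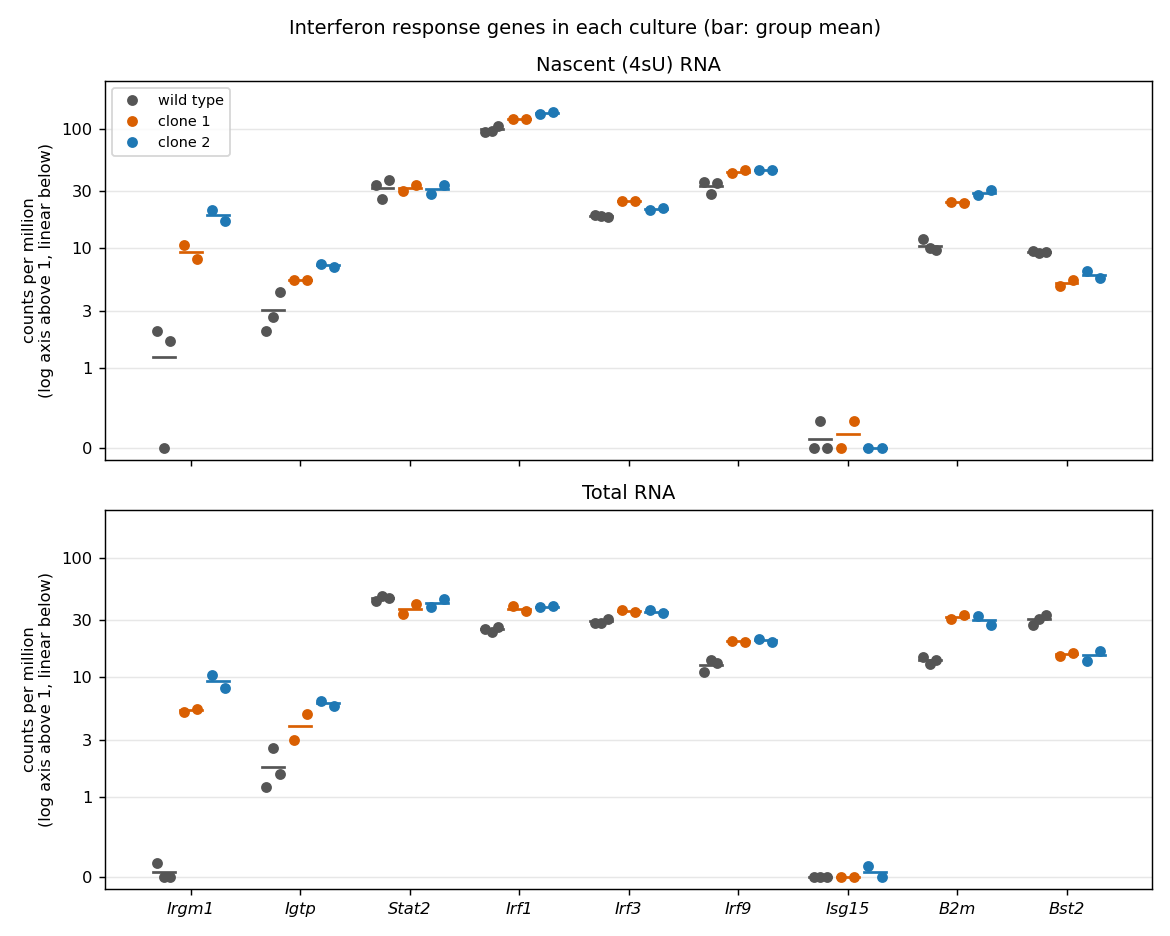
CPM of the 9 interferon response genes in nascent (4sU) and total RNA of each culture, on an axis that is logarithmic above 1 and linear below. Points are cultures (3 wild type, 2 of each *Ddx6* KO clone) and bars are group means. *Irgm1* lies at or below 2.05 CPM in all wild-type libraries and at or above 5.13 CPM in all *Ddx6* KO libraries, and *Bst2* is lower in *Ddx6* KO.

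Whether *Irgm1* moved alone was asked of the other members. A gene was called where the Benjamini-Hochberg adjusted p of edgeR's quasi-likelihood test was below 0.05 and the log2 fold change exceeded 1 in size. In total RNA, 2 of the 7 other tested members were called: *Igtp* rose and *Bst2* fell. Since *Igtp* passed the filter on low counts only through *Ddx6* KO, *Bst2* was the 1 call among members that passed it in wild type. Over all tested genes, 5.28% were called higher and 4.86% lower. By the adjusted p alone, *Igtp*, *Irf1*, *Irf9* and *B2m* were higher and *Stat2* and *Bst2* lower, where 19.5% of all tested genes were higher and 31.0% lower. The median log2 fold change of all tested genes in total RNA was -0.10 under TMM and 0.06 with library size alone. In nascent RNA it was 0.00 under TMM and 0.21 with library size alone. Among the members' log2 fold changes in total RNA, none changed sign between these scalings.

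*Igtp* (ENSMUSG00000078853, chr11:58199556-58207591, plus strand) encodes another immunity-related GTPase, also known as IRGM3, which is found on lipid droplets. Its total RNA lay at 1.22, 2.59 and 1.56 CPM in wild type, while clone 1 had 2.98 and 4.92 CPM and clone 2 had 6.38 and 5.79 CPM. The groups did not overlap, although the lowest *Ddx6* KO culture was close to the highest wild-type one. The log2 fold change was 1.31 ± 0.31 (SE; adjusted p = 0.000311, edgeR). In 4sU RNA the values were 2.05, 2.69 and 4.35 CPM in wild type and 5.46, 5.43, 7.42 and 7.002 CPM in *Ddx6* KO, for a log2 fold change of 0.83 ± 0.36 that did not pass (adjusted p = 0.0595, edgeR). With library size alone that change was 1.03 and was called (adjusted p = 0.0141). Its span overlaps that of *Irgm2* on the same strand by 7974 bases and both share part of a first exon, so reads from there could not be assigned to either gene with certainty.

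*B2m* (ENSMUSG00000060802, chr2:122147686-122153083), the invariant light chain of class I major histocompatibility molecules, rose in nascent RNA. Its 4sU level was 11.9, 10.1 and 9.70 CPM in wild type and 24.3, 24.1, 27.7 and 30.8 CPM in *Ddx6* KO. The log2 fold change was 1.15 ± 0.17 (adjusted p = 1.29e-07, edgeR), the only call among the 7 other tested members in nascent RNA, where 5.14% of all tested genes were called higher and 5.79% lower. In the re-sequencing run alone this change was 0.75 and was no longer called. In total RNA *B2m* lay at 14.8, 12.97 and 14.1 CPM in wild type and at 31.0, 33.1, 32.4 and 27.7 CPM in *Ddx6* KO, with all 4 *Ddx6* KO cultures above all 3 wild-type cultures. That log2 fold change was 1.00 ± 0.12 (adjusted p = 2.25e-10, edgeR). Unrounded it was 0.9993, just under the limit of 1, and *B2m* passed that limit in 10 of 17 alternative fits.

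*Bst2* (ENSMUSG00000046718, chr8:71534255-71537456, minus strand) moved the other way. Its total RNA was 27.6, 31.0 and 33.3 CPM in wild type, 15.1 and 16.1 CPM in clone 1, and 13.8 and 16.7 CPM in clone 2. Every *Ddx6* KO culture was below every wild-type culture, and the clones overlapped. The log2 fold change was -1.15 ± 0.12 (adjusted p = 3.00e-12, edgeR). It was -0.99 with library size as the only scaling, which ends the call. In 4sU RNA *Bst2* was at 9.42, 9.08 and 9.36 CPM in wild type and at 4.85, 5.43, 6.45 and 5.60 CPM in *Ddx6* KO. That change, -0.94 ± 0.24, passed the adjusted p (0.000966, edgeR) but not the size limit, and in the re-sequencing run alone it did not pass the adjusted p either (0.0695).

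The transcription factors of the pathway moved by less. *Irf1* (ENSMUSG00000018899, chr11:53770014-53778374) had total RNA of 25.2, 24.1 and 26.3 CPM in wild type and 39.4, 35.6, 38.9 and 39.2 CPM without *Ddx6*. The log2 fold change was 0.44 ± 0.09 (adjusted p = 5.40e-05, edgeR). *Irf9* (ENSMUSG00000002325, chr14:55603571-55610030) had 11.2, 13.9 and 13.1 CPM in wild type and 20.04, 19.9, 21.0 and 19.9 CPM without *Ddx6*. The log2 fold change was 0.51 ± 0.12 (adjusted p = 0.000489, edgeR). Neither gene's groups overlapped in total RNA, and neither passed the size limit. In nascent RNA the log2 fold changes were 0.17 ± 0.08 for *Irf1* and 0.21 ± 0.12 for *Irf9*, with adjusted p of 0.0908 and 0.153 (edgeR). With library size alone these were 0.37 (adjusted p = 0.000106) and 0.42 (adjusted p = 0.00301), and with the replicate number as a block that of *Irf1* was 0.21 (adjusted p = 0.0483). The span of *Irf9* overlaps the end of *Rnf31* on the same strand by 123 bases.

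*Stat2* (ENSMUSG00000040033, chr10:128270576-128292849) was lower, with total RNA of 43.5, 47.9 and 46.5 CPM in wild type and 34.1, 41.0, 38.5 and 45.5 CPM in *Ddx6* KO. As CPM the groups overlapped, and after TMM scaling they did not. The log2 fold change was -0.37 ± 0.09 (adjusted p = 0.000924, edgeR), and in nascent RNA it was -0.23 ± 0.13 (adjusted p = 0.172, edgeR). With library size alone the change in total RNA was -0.21 and did not pass (adjusted p = 0.0609). STAT2 and IRF9 are partners in the ISRE-binding complex, and their transcripts had log2 fold changes of opposite sign.

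*Irf3* (ENSMUSG00000003184, chr7:44997648-45002848) did not pass in either RNA. Its total RNA was 28.7, 28.4 and 31.0 CPM in wild type and 36.9, 35.5, 36.8 and 34.2 CPM in *Ddx6* KO, which do not overlap as CPM but do after TMM scaling. Its log2 fold change was 0.13 ± 0.10 (adjusted p = 0.269, edgeR) and with library size alone 0.29 (adjusted p = 0.0113). In 4sU RNA the log2 fold change was 0.11 ± 0.15 (adjusted p = 0.584, edgeR). *Isg15* (ENSMUSG00000035692, chr4:156199424-156200818, minus strand), one of the most strongly induced genes of an interferon response, had at most 1 count in any library, 2 counts over all 4sU libraries and 1 over all total RNA libraries. *Isg15* was thus at the floor in both genotypes. In total RNA of *Ddx6* KO its mean was 0.0339 CPM, where that of *Irgm1* was 7.34 CPM. A fold change of *Isg15* could not be estimated from so few counts, and a small difference was not detectable at this depth.

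By the adjusted p alone, *B2m* and *Bst2* were the 2 members past the threshold in nascent RNA, against 20.6% of all tested genes higher and 21.0% lower. DESeq2 and limma-voom also passed 2 there and 6 in total RNA.

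The ratio of total over 4sU RNA served as the measure of mRNA stability, and its change between genotypes is the interaction term of the fit. In wild type, the log2 ratio was highest in *Bst2* at 1.66 ± 0.15 (SD, n = 3, 0.5 CPM added), at percentile 93.4 of all tested genes. It was 0.63 ± 0.09 in *Irf3*, 0.51 ± 0.31 in *Stat2* and 0.38 ± 0.12 in *B2m*. *Irf9* at -1.36 ± 0.31 and *Irf1* at -1.96 ± 0.05 were at percentiles 21.4 and 14.6, so the transcripts of these regulators had little total RNA for their nascent RNA. *Igtp*, at -0.63 ± 0.60, varied most between wild-type cultures among members with over 10 counts in both RNAs.

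None of the 7 other tested members was called for mRNA stability by edgeR, DESeq2 or limma-voom, and none passed the adjusted p in any of these. At an unadjusted p below 0.05, edgeR passed 1, *Irf1*. Over all tested genes, 0.689% were called higher and 0.393% lower, and by the adjusted p alone 3.78% were higher and 8.60% lower. The log2 change in stability ranged from -0.21 ± 0.27 (SE) in *Bst2* to 0.48 ± 0.49 in *Igtp*. For *Irf1* it was 0.28 ± 0.12 (adjusted p = 0.138, edgeR), and 0.37 (adjusted p = 0.0464) with TMM computed within each assay, with log2 ratios of -1.91, -1.98 and -1.99 in wild type and -1.56, -1.71, -1.70 and -1.76 in *Ddx6* KO, which do not overlap. The error of these values leaves moderate changes undetectable in *Igtp*, *Bst2* and *B2m*.

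For *Irgm1* the log2 ratio in *Ddx6* KO was -0.94, -0.51, -0.90 and -0.96. In wild type it was -1.98, 0.00 and -2.202, values that rest on 1 total RNA count and 10 4sU counts and are set by the 0.5 CPM added. The larger ratio in total than in nascent RNA is therefore given above as counts, and no stability value is drawn from it.

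**Figure D2:**
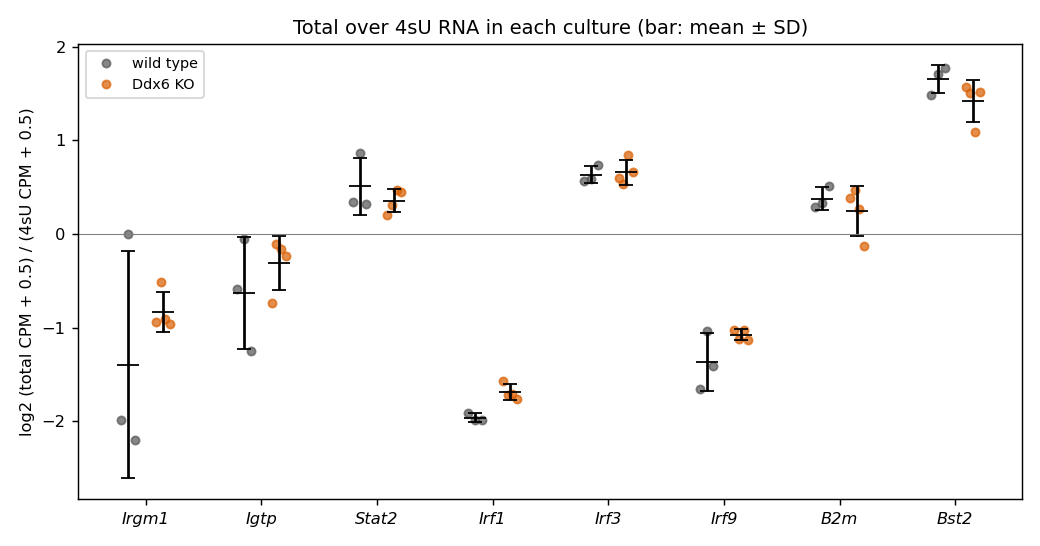
Log2 ratio of total over 4sU RNA, after TMM scaling with 0.5 CPM added, for the 8 tested interferon response genes. Points are cultures, and black bars give the mean ± SD of 3 wild-type and 4 *Ddx6* KO cultures. *Bst2* is the highest in both genotypes and *Irf1* is the lowest of the members other than *Irgm1*, whose wild-type values come from 11 counts and are set by the CPM added.

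The 2 clones were compared with each other. None of the 7 other tested members passed in total RNA, nascent RNA or stability by edgeR, DESeq2 or limma-voom, where edgeR called 0.0827% of all tested genes in total RNA, 0.0689% in nascent RNA and 0% for stability. At an unadjusted p below 0.05, edgeR passed 0 of these 7 in any of the 3 comparisons. *Igtp* had a log2 difference of 0.60 ± 0.32 (SE) in total RNA (adjusted p = 0.779, edgeR). For *Irgm1*, given without a test, clone 2 was above clone 1 by a log2 difference of 0.83 ± 0.28 in total RNA and 0.99 ± 0.29 in 4sU RNA.

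A wider list of 122 interferon genes, which includes the members, placed them in their pathway. Of these, 68 were tested, and *Irgm1* is again left out, which leaves 67. Another 14 were at 0 in every library. In total RNA 14 of 67 (20.9%) were called higher and 2 (2.99%) lower, beside the 5.28% and 4.86% of all genes. In nascent RNA 11 (16.4%) were called higher and 1 (1.49%) lower, beside 5.14% and 5.79% of all genes. Of the 14 called higher in total RNA, 9 did not reach 3 CPM in 3 wild-type libraries and so passed the filter through *Ddx6* KO. The same held for 6 of the 11 called higher in nascent RNA. Among the 58 with a mean of at least 3 CPM over all libraries, 9 (15.5%) were called higher and 1 lower in total RNA, against 4.56% and 4.28% of all genes with such a mean. In nascent RNA 8 (13.8%) of these were called higher and none lower, against 4.63% and 4.99%. Of these, 4 of the 9 and 3 of the 8 still did not reach 3 CPM in 3 wild-type libraries. By the adjusted p alone, 40 of the 67 (59.7%) were higher and 7 (10.4%) lower in total RNA, against 19.5% and 31.0% of all tested genes. Nascent RNA had 32 (47.8%) higher and 5 (7.46%) lower, against 20.6% and 21.0%. For stability 3 (4.48%) were higher and 4 (5.97%) lower, against 3.78% and 8.60%. The median log2 fold change of the 67 was 0.41 in total and 0.44 in nascent RNA, and that of all tested genes -0.10 and 0.00. Of the 67, 54 passed the filter in the wild-type libraries alone. The shares by the adjusted p and the medians also include the rest, which passed only with *Ddx6* KO libraries. Since the list was drawn up with results of these libraries known, these shares describe it and do not test it.

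No ligand was found: the 7 interferon genes listed held at most 1 count in any library, and 6 of them 0 in all. All 6 receptor genes were tested. *Ifnar1*, a chain of the type I receptor, was higher by the adjusted p in total RNA, with 0.36 ± 0.08 on the log2 scale (SE; adjusted p = 0.000320, edgeR), and *Ifnar2*, its partner, was not (-0.29, adjusted p = 0.191). *Ifngr1*, *Ifngr2* and *Ifnlr1* did not pass, with log2 fold changes of 0.34, -0.37 and 0.33. *Il10rb*, a chain shared by the receptors of lambda interferons and IL-10, was called higher, from 0.744 ± 0.874 to 3.12 ± 1.17 CPM (SD, n = 3 and 4), a log2 fold change of 1.81 (adjusted p = 0.000761, edgeR). *Il10rb* passed the filter only through *Ddx6* KO, and its nascent RNA did not pass, at a log2 fold change of 0.55 (adjusted p = 0.428, edgeR). None of the 6 JAK kinases and STATs was called. By the adjusted p alone, 3 of them were higher and 1 lower in total RNA, beside 19.5% and 31.0% of all tested genes. In nascent RNA 3 were higher and none lower, beside 20.6% and 21.0%. For stability none was higher and 2 were lower, beside 3.78% and 8.60%.

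Among the sensors and adaptors, 3 of 11 were called higher in total RNA and 4 in nascent RNA, beside 5.28% and 5.14% of all tested genes, and none was called lower. *Zbp1* and *Ikbke* passed the filter only through *Ddx6* KO. *Trim25*, a ubiquitin ligase that acts on RIG-I, was lower by the adjusted p in total RNA, at a log2 fold change of -0.70 (adjusted p = 3.73e-09, edgeR). *Ikbke*, a kinase that phosphorylates IRF3, went from 0.936 to 8.42 CPM in total RNA, with wild-type cultures between 0.305 and 1.28 and *Ddx6* KO cultures between 7.19 and 9.94. Its log2 fold change was 2.98 in total RNA (adjusted p = 2.49e-11) and 1.25 in nascent RNA (adjusted p = 0.0155, edgeR). *Tmem173*, which encodes the DNA-sensing adaptor STING, was called in both RNAs, at log2 fold changes of 1.33 and 1.41. *Zbp1*, a sensor of Z-form nucleic acid, was called in both at 1.95 and 2.54, from 21 wild-type counts in total RNA and 4 in 4sU RNA. *Ddx58*, the RNA sensor RIG-I, was called in nascent RNA only, at 1.05, with 0.68 in total RNA, a difference between both RNAs that did not pass (adjusted p = 0.322 for stability). *Irf2*, a factor that competes with IRF1, was called in both RNAs, but its total RNA held 3 counts in wild type and 19 in *Ddx6* KO. In 4sU RNA *Irf2* rose from 1.69 to 9.86 CPM, a log2 fold change of 2.35 (adjusted p = 1.88e-06, edgeR). *Irf2* also passed the filter only through *Ddx6* KO.

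The other immunity-related GTPases were few. Of 9 listed, 4 were tested: *Irgm1*, *Igtp*, *Irgm2* and *Irgq*. *Irgm2*, which like IRGM1 is a regulatory member of the family, rose in total RNA from 2.64 (range 1.56 to 3.21) to 6.57 CPM (4.78 to 8.11), a log2 fold change of 1.16 (adjusted p = 0.000157, edgeR). Its nascent RNA did not pass, at 10.3 against 10.5 CPM and a log2 fold change of -0.18. It was called for stability at 1.34 (adjusted p = 0.00801, edgeR), a call that DESeq2 did not make. *Irgq*, a more distant relative, had a log2 fold change of -0.05 in total RNA (adjusted p = 0.730). Among the 8 guanylate-binding proteins, relatives of these GTPases, 1 was tested, and *Gbp9* was called higher in total RNA at 1.19 (adjusted p = 0.0204, edgeR). *Gbp9* passed the filter only through *Ddx6* KO, and its wild-type total RNA held 17 counts. Its nascent RNA did not pass, at a log2 fold change of -0.41 (adjusted p = 0.493, edgeR). *Gbp2*, named after its values were seen, was under the filter, with 0 counts in all wild-type total RNA libraries and 12 to 17 in each *Ddx6* KO one, at least 13.1-fold higher than a floor of 3 counts over the wild-type group.

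Antiviral effectors held 20 tested genes, of which 6 were called higher and 1, *Bst2*, lower in total RNA, beside 5.28% and 4.86% of all tested genes. Of the 6, *Ifit2*, *Trim21* and *Helz2* passed the filter only through *Ddx6* KO. *Oasl1*, an oligoadenylate synthetase-like protein, rose from 2.80 to 21.3 CPM in total RNA (log2 fold change 2.79, adjusted p = 2.51e-18) and from 3.39 to 16.8 CPM in 4sU RNA (2.07, adjusted p = 1.98e-09, edgeR). *Ifit2*, an RNA-binding effector, rose by 2.18 and 1.51 on the log2 scale in total and nascent RNA, and *Xaf1*, a pro-apoptotic factor, by 1.01 and 1.26. *Trim21*, a cytosolic antibody receptor, rose by 1.28 and 1.10. *Oas3* was called in total RNA at 1.29 and *Oas2* in nascent RNA at 1.16, and *Oas2* too passed the filter only through *Ddx6* KO. *Helz2*, a helicase, rose in total RNA by 1.62 and was called for stability at 1.81 (adjusted p = 0.00779, edgeR), a call that DESeq2 did not make. *Ube2l6*, the conjugating enzyme that attaches ISG15, was called lower in both RNAs, from 4.53 to 1.43 CPM in total RNA and from 5.21 to 0.383 CPM in 4sU RNA, at log2 fold changes of -1.78 and -3.82. Its *Ddx6* KO level in 4sU RNA rests on 5 counts and lies below the floor of 3 counts per library, so the size of that change is uncertain. Several of these families hold close copies, and reads that map to more than 1 place were dropped by the authors, so the counts of such copies are uncertain.

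Of 9 antigen presentation genes tested, none was called in total RNA, where their median log2 fold change was 0.78. That of the 20 tested antiviral effectors was 0.39. By the adjusted p alone, 7 antigen presentation genes were higher and none lower, beside 19.5% and 31.0% of all tested genes. They included *Psme2*, a proteasome activator subunit, at 0.95, *Erap1*, which trims peptides, at 0.96, and *Tapbp*, the peptide-loading chaperone tapasin, at 0.78. *H2-D1*, a class I heavy chain that pairs with B2M, was at 0.41 (adjusted p = 0.00117), and *H2-K1*, another, was at 0.19 and did not pass (adjusted p = 0.0851, edgeR). *Tap1*, a subunit of the peptide transporter, was at -0.67 and did not pass either (adjusted p = 0.0760). Of the 4 negative regulators, none was called. *Socs3*, an inhibitor of JAK kinases, was at 0.75 in total RNA (adjusted p = 8.29e-14, edgeR).

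**Figure D3:**
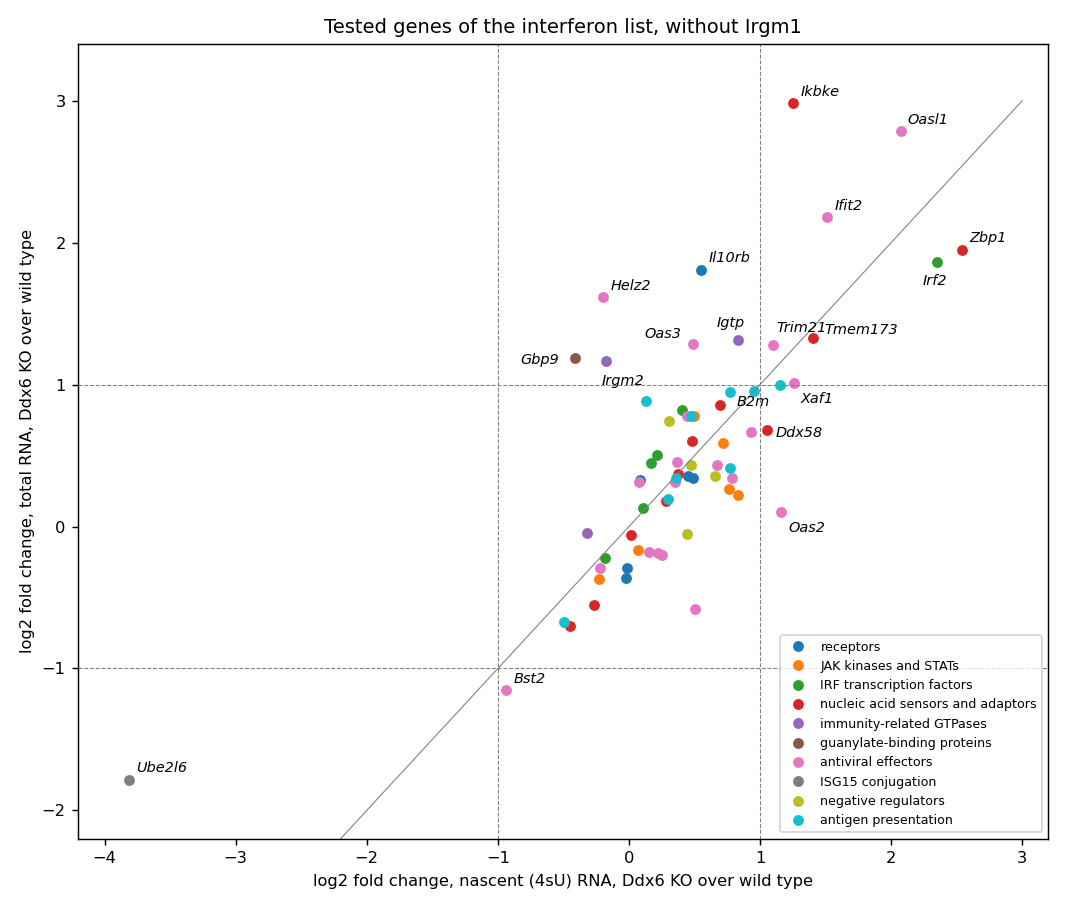
Log2 fold change between *Ddx6* KO and wild type in nascent (x axis) and total RNA (y axis) for the 67 tested genes of the interferon list other than *Irgm1*, coloured by role. Each point is the edgeR estimate from 3 wild-type and 4 *Ddx6* KO cultures, dashed lines mark a log2 fold change of 1 in size, the diagonal marks equal change, and called genes are named. *Ikbke* and *Oasl1* are the highest in total RNA, *Bst2* and *Ube2l6* lie at the lower left, and *Oas2*, *Ddx58* and *B2m* passed both limits in nascent and not in total RNA, with a change in stability that did not pass.

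The ISRE core was then counted over the list. Among genes called higher in total RNA, *Igtp* included and *Irgm1* not, 5 of the 10 with a promoter window held it. These were *Irf2*, *Irgm2*, *Igtp*, *Oas3* and *Trim21*. Of them, *Irf2*, *Igtp* and *Trim21* passed the filter only through *Ddx6* KO, and *Igtp* and *Irgm2* share part of a first exon. Among genes called lower it was 1 of 2, *Bst2*. Among tested genes not called it was 11 of 43, and among genes not tested 17 of 39. In the whole reference 3.99% of 27025 genes held it in at least 1 window. Genes with the core were thus found among those that moved, those that did not pass and those below the filter.

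The neighbourhood of *Irgm1* on chromosome 11 was examined for genes that moved with it. Of the 37 genes whose lower coordinate lies within 500 kb of that of *Irgm1*, 9 were tested. None of these was called higher in either RNA, beside 5.28% of all tested genes in total RNA and 5.14% in nascent RNA. By the distance between lower coordinates the nearest was *Trim7*, at 39.1 kb. Its log2 fold changes were 0.16 ± 0.21 in total and 0.33 ± 0.34 in nascent RNA. *Rack1*, a ribosomal scaffold gene 64.9 kb away by the same measure, was lower, at -0.69 ± 0.05 and -0.90 ± 0.05. The small nucleolar RNA *Snord95* was called lower in total RNA (-1.06), and *Snord96a* (-1.17) and *Gm25296* (-1.15) were called lower in nascent RNA. Over all tested genes, 4.86% were called lower in total RNA and 5.79% in nascent RNA. *Snord95*, *Snord96a* and *Gm25296* lie within the span of *Rack1* on the same strand. The highest neighbour was *Gm12183*, at 0.60 ± 0.22 in total RNA.

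**Figure D4:**
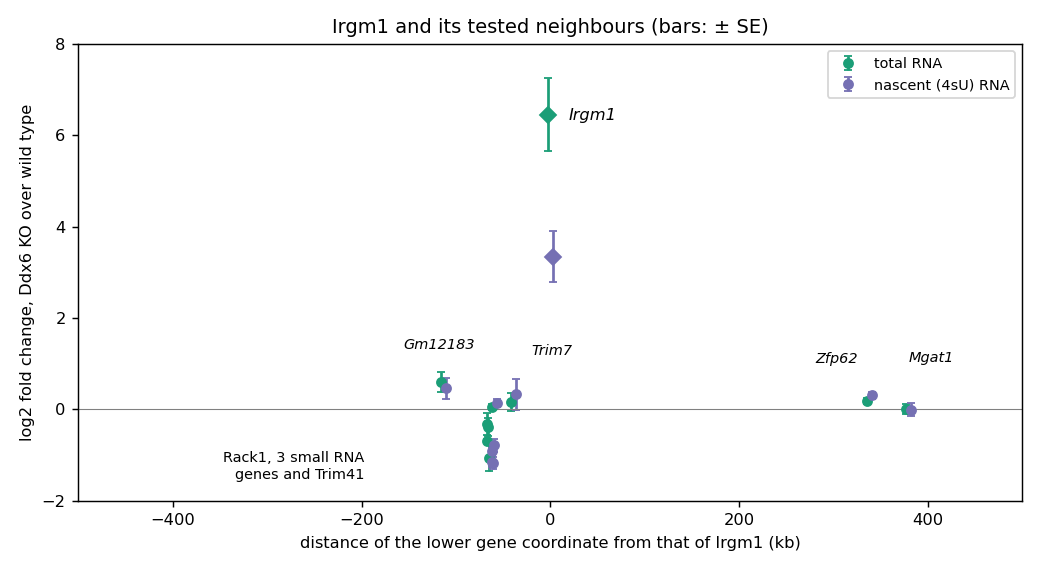
Log2 fold change between *Ddx6* KO and wild type (edgeR, bars ± SE) of *Irgm1* (diamonds) and its 9 tested neighbours (circles), against the distance between lower coordinates in kb along chromosome 11. The estimates for *Irgm1*, 6.45 in total and 3.34 in nascent RNA, come from 1 and 10 wild-type counts and depend on how the fit treats low counts, and all neighbours lie below 0.7.

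The genes whose pattern was most like that of *Irgm1* were sought over the 14 libraries, with each assay centred on its own mean. The 5 highest Pearson correlations were with *Sohlh2* (r = 0.982), *Mest* (0.976), *Edem1* (0.974), *Lrrc8c* (0.974) and *Sec61a1* (0.974), and none of these is on the interferon list. These are descriptions over libraries that share genotype and clone, and 430 of 14517 genes exceeded 0.9. Among the members, *B2m* had r = 0.937, with 128 genes more alike than it, followed by *Irf9* at 0.886, *Irf1* at 0.870 and *Igtp* at 0.826. *Irf3* was at 0.502, *Stat2* at -0.557 and *Bst2* at -0.909.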

How the data were processed

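Nascent (4sU) and total RNA of 7 mouse ESC cultures was sequenced, with rRNA depletion stated for total RNA. The authors used cutadapt 1.14 for trimming, STAR 2.5.3a for mapping to mm10 with reads at more than 1 place dropped, and counted reads per gene on the Gencode M14 basic annotation with featureCounts 1.5.3, using strand, as listed in the submitters' processing notes and the file headers. The authors deposited these as raw counts with no scaling. For 4sU libraries, single-end and re-sequencing counts were added, since the series' design text describes such a merge. All per-sample columns were used.

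Counts were filtered (at least 3 CPM in at least 3 libraries), scaled with TMM over 14 libraries (factors 0.923 to 0.944 in wild type, 1.035 to 1.072 in *Ddx6* KO) and fitted in R 4.3.3 with edgeR 4.0.16 (quasi-likelihood test), on genotype, assay and their interaction, and Benjamini-Hochberg adjustment over all tested genes. The study's methods name limma, which is an alternative here. Printed CPM are scaled to the library total. Exact intervals came from scipy 1.17.1. The code was tested on simulated data.

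The members and lists were chosen with earlier results of these data known. Genes named were the 9 members; of the wider list those called, the receptors and other immunity-related GTPases; tested genes within 500 kb of *Irgm1*; and the 5 most alike in pattern. An item that the rule also names is not reported here. *Gbp2*, *Socs3*, *Trim25* and the antigen presentation genes other than *B2m* were named after their values were seen. Alternatives were DESeq2 1.42.0, limma-voom (limma 3.58.1), other scalings and filters, each run, each clone, a block for culture or for replicate number, fits without each culture, and the adjusted p alone. A mean of at least 3 CPM was added after the data were seen. No protein sequences were used.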

Additional observations from a re-analysis of the deposited data

Results flagged for a closer look

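In 24 groups of 4 *Ddx6* KO cultures, 1 for each member and measure with enough counts, the gap between the farthest culture and its nearest neighbour was divided by the group's range. Chance alone exceeds the limit in about 1 of 20 such groups, which gives 1.2 of 24, and 5 exceeded it. For *Irgm1* the log2 ratio of total over 4sU RNA had a gap of 0.865 of the range, with the second culture of clone 1 at -0.51 and the others between -0.96 and -0.90. For *Irf1* in total RNA the value was 0.876, with 35.6 CPM in the second culture of clone 1 against 38.9 to 39.4 CPM. For *Irf9* it was 0.896 in 4sU RNA, with the first culture of clone 1 lowest at 42.5 CPM against 44.8 to 45.1, and 0.908 in total RNA, with the first culture of clone 2 highest at 21.0 CPM against 19.9 to 20.04. For the log2 ratio of *Bst2* it was 0.857, with the first culture of clone 2 at 1.09 against 1.505 to 1.57. The range over the *Irf9* cultures in total RNA was about 1 CPM, so the culture that stood apart differed little in level.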

How the results depend on the processing

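The number of other members called in total RNA, 2, was 6 by the adjusted p alone and 2 to 3 with any 1 culture left out. In nascent RNA the number, 1, was 2 with library size only, in clone 1 only, in clone 2 only and by the adjusted p alone, 0 in the re-sequencing run, and 1 to 2 with a culture left out, where leaving out wild-type replicate 3 added *Igtp* at a log2 fold change of 1.18. For stability and between clones the number was 0 in all alternatives run. On the wider list, 14 called higher in total RNA became 40 by the adjusted p alone, 9 with a mean of at least 3 CPM, and 11 to 15 with a culture left out. The 2 called lower became 1 with library size only, 7 by the adjusted p alone and 1 with that mean. In nascent RNA the 11 called higher became 7 in the re-sequencing run, 5 in clone 1 only, 32 by the adjusted p alone, and 8 to 12 with a culture left out, and the 1 called lower became 2 in clone 1 only, 5 by the adjusted p alone and 0 with that mean. For stability the 2 called higher became 0 with DESeq2, 0 in the re-sequencing run, 1 in clone 1 only and 2 to 3 with a culture left out, and the 0 called lower became 4 by the adjusted p alone. The cause of these shifts was not tested beyond the smaller counts that a single run or clone leaves.

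Changes in stability that did not pass reversed in sign for *Stat2* with a culture left out (-0.250 to 0.0323), for *B2m* in the re-sequencing run (0.246) and clone 1 only (0.0474), and for *Irf3* with library size only (-0.0271), in the re-sequencing run (-0.151), in clone 1 only (-0.0672) and with a culture left out (-0.0340 to 0.0803). No change in total or nascent RNA reversed.

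Replicate numbers were examined over 12 pairs. They did not pair wild-type with *Ddx6* KO cultures, with correlations of deviations between -0.0381 and 0.0885. Pairs between the clones lay between -0.424 and -0.400, and no conclusion is drawn from these. The fit with the replicate block made 2, 1 and 0 calls among the other members and 14 and 2, 11 and 1, and 2 and 0 calls on the wider list in total RNA, nascent RNA and stability. Total and 4sU RNA of a culture come from the same cells, with correlations of 0.0035 to 0.125, and the fit with culture as a block called 0 members and 3 listed genes as more stable. Depth limits *Irgm1*, *Igtp* and *Isg15* most, since wild-type counts of these genes were at most 17 in any library.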
